A study of Homo sapiens with 6 samples.

Results

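The mitochondrial chromosome carries MT-ND5, MT-ND6 and MT-CYB next to each other, and the segment described here is the run from the first base of MT-ND5 to the last base of MT-CYB, without the tRNA gene MT-TE at bases 14674 to 14742. It was taken by position and holds 3482 of the 16569 bases of the chromosome, or 21.0%. It was picked because earlier results of the same coverage values showed a difference there between libraries labelled C17orf80 knockout and WT. The differences between those groups in the segment are therefore descriptions: where counts of windows called by a fit over the whole chromosome are given, nothing about the segment is read from them.

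The study asked how loss of C17orf80, a protein associated with mitochondrial nucleoids, affects transcription of mitochondrial DNA in HEK-293T cells, a line of human embryonic kidney origin that carries the SV40 large T antigen. It compared 3 libraries labelled knockout, from cells given an sgRNA against C17orf80, with 3 WT libraries, from cells given a non-targeting sgRNA. Cells of both groups were kept in DMEM with 10% FBS, and monoclonal lines were obtained under puromycin at 3 μg/ml. RNA was taken up in TRIzol and mRNA was pulled down on poly-T beads, and the labels state neither a time after editing nor a strand-specific kit. The sources used here give neither how many clones the libraries come from nor whether those of a group come from separate cultures. Clone and guide thus cannot be told apart, and the spread between libraries, which is all that the p-values measure, may be technical. In bulk RNA, fewer cells with a transcript and less of it per cell cannot be told apart either.

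Mitochondrial DNA is transcribed from both strands into long precursor RNAs, from which mature RNAs are cut, mostly at the tRNA genes that lie between the other genes. MT-ND5 and MT-CYB are read from the heavy strand and lie near the far end of its transcription unit, while MT-ND6 is read from the light strand. MT-ND5 and MT-ND6 encode membrane subunits of respiratory complex I, and MT-CYB encodes cytochrome b, the mitochondrially encoded subunit of complex III. No tRNA gene lies between MT-CYB and MT-ND5 on the heavy strand, where the cut leaves sequence opposite to MT-ND6 and MT-TE in between. The coverage holds both strands together, so heavy-strand RNA over MT-ND6 was not separated from MT-ND6 RNA itself.

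In GRCh38 coordinates of the RefSeq annotation, MT-TL2 ends at base 12336 and MT-ND5 follows directly with 1812 bases up to base 14148, MT-ND6 covers bases 14149 to 14673 (525 bases), and MT-CYB begins at base 14747 and runs for 1141 bases up to MT-TT, which begins at base 15888. Each of these mitochondrial genes is a single uninterrupted stretch with no intron. Coverage is given per base in the submitters' depth-scaled unit, in which 1 read over a base is worth 0.0238 to 0.0270 depending on the library.

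The labels and libraries were checked first. C17orf80 had 763, 699 and 698 counts in the libraries labelled knockout, against 397, 451 and 476 counts in WT. Its transcript was thus higher where it was labelled as knocked out, at 46.9 ± 8.22 against 27.3 ± 1.72 CPM (SD, n = 3 each), and edgeR put the log2 difference at 0.78 ± 0.17 (SE; adjusted p = 0.0232). It was higher in 3 of 3 libraries labelled knockout, though the adjusted p was 0.0999 to 0.127 without any 1 WT library and 0.0549 without replicate 3 labelled knockout, and the groups are called by their labels throughout. Of 7 markers of HEK-293T cells, 6 were detected above 3 CPM in each library and LHX1 was at most at 0.676 CPM, while PTPRC and CD3E were at 0 in all 6 libraries. Of the 7 markers, 4 were lower in all libraries labelled knockout than in all WT libraries and 0 were higher: NEFL was at 62.9 to 72.5 CPM in the libraries labelled knockout, against 195 to 206 CPM in WT, EYA1 at 6.01 to 8.44 against 17.7 to 22.1 CPM, PAX2 at 3.14 to 7.13 against 8.35 to 9.68 CPM and NEFM at 117 to 146 against 147 to 156 CPM. The share of all genes that separate in this way was not counted, so the 4 of 7 cannot be set against it. The 7 markers summed to 492 to 495 CPM in the libraries labelled knockout and to 647 to 677 CPM in WT, and their part in the results below was not tested. Replicate 1 labelled knockout stood apart. Mitochondrial genes took 11.9% of its gene counts, against 4.53% and 5.00% in the other libraries labelled knockout and 4.65% to 4.71% in WT, and its mean coverage of the chromosome was 1010, against 489 and 558 in the others labelled knockout and 476 to 517 in WT. Log2 ratios of levels and shares and of the ratios between genes are therefore also given without it.

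Mean coverage of the whole segment was 753, 242 and 293 in replicates 1 to 3 labelled knockout, against 384, 423 and 473 in WT. Replicate 1 labelled knockout was above the WT libraries and the other 2 were below them (log2 ratio of the means 0.0075, and -0.68 without replicate 1 labelled knockout). The segment took 15.7%, 10.4% and 11.0% of the chromosome's coverage in the libraries labelled knockout, against 16.9%, 17.8% and 19.2% in WT. As a share the segment was thus lower in 3 of 3 libraries labelled knockout (log2 ratio -0.54, and -0.75 without replicate 1). In each library the lowest base of the segment was the last base of MT-CYB, at a depth of 440 to 1917 reads in the libraries labelled knockout and 867 to 976 reads in WT. The highest base reached 14216 to 55477 reads in the libraries labelled knockout and 23175 to 24981 reads in WT.

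**Figure D1:**
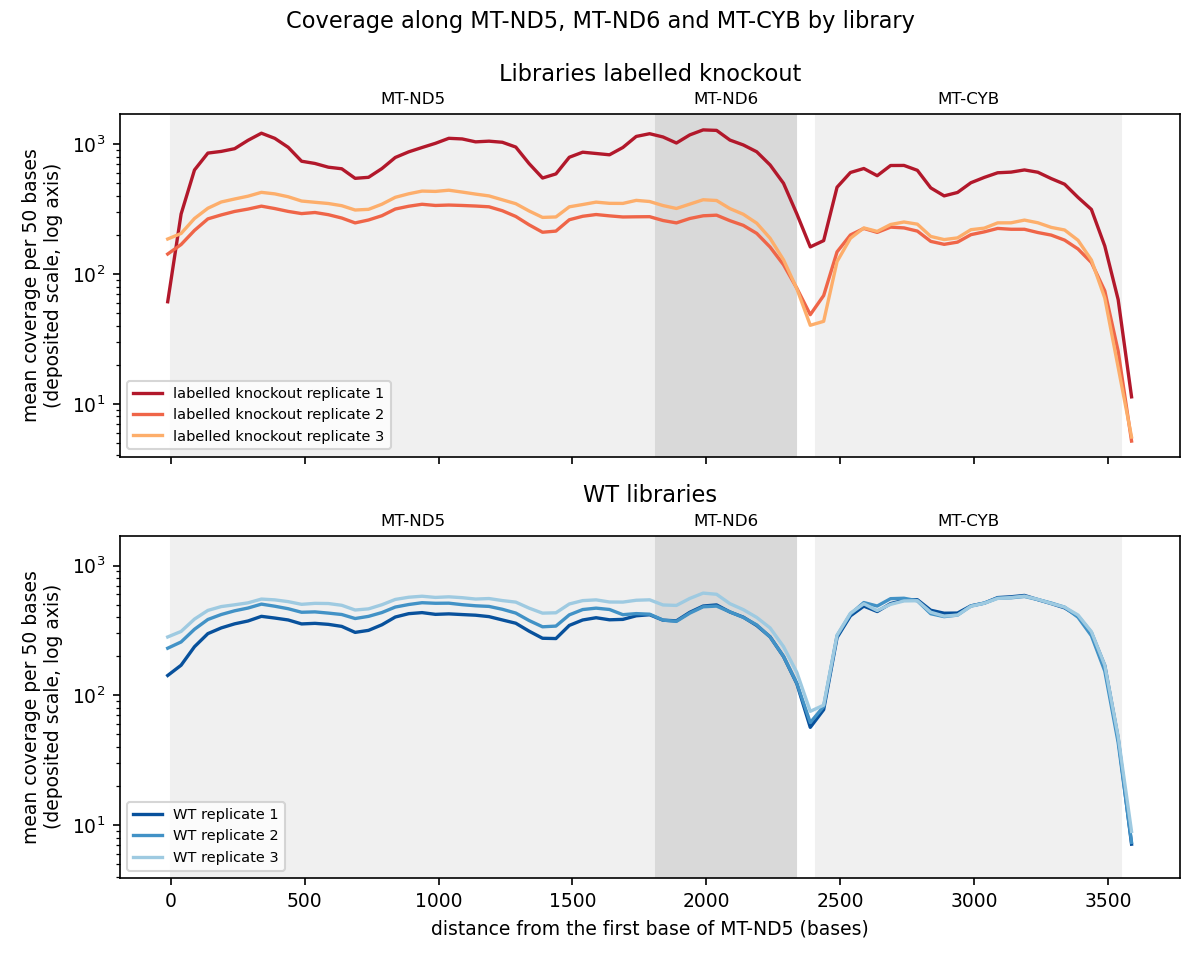
Mean coverage in bins of 50 bases along the segment on the deposited scale (log axis), against the distance in bases from the first base of MT-ND5, with the 3 libraries labelled knockout in the upper panel, the 3 WT libraries in the lower one and the genes shaded. The WT lines lie on each other over MT-CYB, where they average 428 to 430.3, while replicate 1 labelled knockout runs above replicates 2 and 3 from shortly after the start of MT-ND5 on.

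MT-CYB was the gene of the segment whose share of coverage separated the groups. Its mean coverage was 494, 179.7 and 193 in the libraries labelled knockout, against 429, 430.3 and 428 in WT. The WT libraries were nearly equal, at 429 ± 1.04, and the libraries labelled knockout ranged widely, at 289 ± 178, with replicate 1 above WT and the others below it (SD, n = 3 each; log2 ratio of the means -0.57, and -1.20 without replicate 1 labelled knockout). As a share of its library's mitochondrial coverage, MT-CYB took 3.37%, 2.53% and 2.38% in the libraries labelled knockout, against 6.20%, 5.93% and 5.71% in WT. All 3 libraries labelled knockout lay below all 3 WT libraries, with means of 2.76 ± 0.532% and 5.95 ± 0.246%, 2.16-fold lower (log2 ratio -1.11, and -1.28 without replicate 1 labelled knockout). Set against the WT mean, the share was 0.566, 0.426 and 0.400 times as large in replicates 1 to 3 labelled knockout.

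MT-ND5 did not separate the groups on either scale. Its mean coverage was 852, 286 and 359 in the libraries labelled knockout, against 359, 435 and 507 in WT. The means were 499 ± 308 and 434 ± 74.1 (SD, n = 3 each), and the log2 ratio of 0.20 became -0.43 without replicate 1 labelled knockout. Its share was 9.23%, 6.39% and 7.03% in the libraries labelled knockout, against 8.24%, 9.52% and 10.7% in WT. The groups overlapped through replicate 1 labelled knockout, which lay above the lowest WT library (log2 ratio -0.33, and -0.50 without that replicate). No level was taken off in these values. Coverage over the tRNA genes just before MT-ND5 already came to 7.49%, 51.1% and 52.3% of its mean in the libraries labelled knockout, against 41.3%, 54.2% and 56.1% in WT. Above the value at its first base the groups overlapped too, at 792, 143 and 173 against 205 to 226.

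MT-ND6, where coverage holds both strands together, behaved like MT-ND5 in that replicate 1 labelled knockout was high and the other 2 were low. Its mean coverage was 977, 226 and 283 in the libraries labelled knockout, against 373, 371 and 456 in WT (log2 ratio 0.31, and -0.65 without replicate 1 labelled knockout). The share was 3.06%, 1.46% and 1.61% in the libraries labelled knockout, against 2.48%, 2.35% and 2.80% in WT. Replicate 1 labelled knockout held the highest share of all 6 libraries and replicates 2 and 3 the lowest, so that the groups overlapped (log2 ratio -0.31, and -0.73 without replicate 1 labelled knockout).

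**Figure D2:**
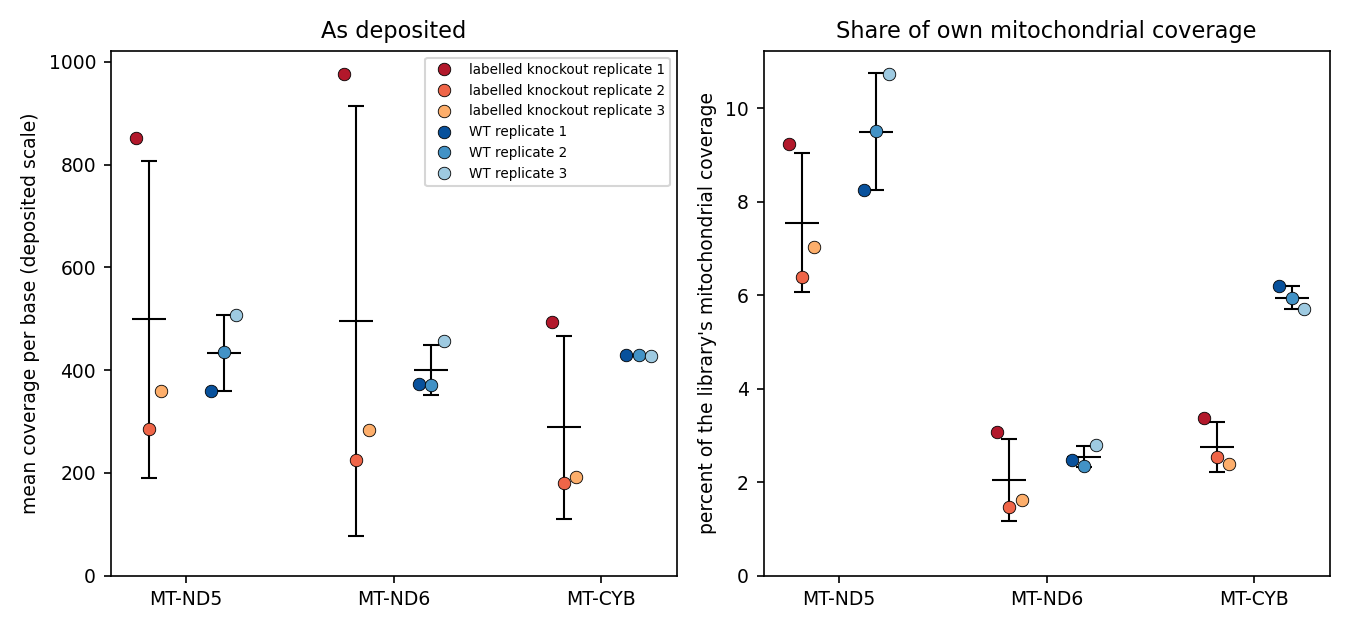
Mean coverage of MT-ND5, MT-ND6 and MT-CYB in each library, on the deposited scale and as a share in percent of the library's own mitochondrial coverage, with labelled knockout left of WT; points are libraries and bars mark the mean and SD of 3. Only for the share of MT-CYB, at 2.38% to 3.37% against 5.71% to 6.20%, do the points of the groups not overlap.

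Among the 13 mitochondrial mRNA genes of the chromosome, MT-CYB had company in both directions. On the deposited scale 6 of the 13 genes had higher coverage in all libraries labelled knockout than in all WT libraries, 0 were lower, and none of the 6 was MT-ND5, MT-ND6 or MT-CYB. As a share, 3 genes were lower in each library labelled knockout, namely MT-CYB, MT-ATP6 and MT-CO3, and 3 were higher, namely MT-ND1, MT-ND2 and MT-ND4. The log2 ratio of the shares lay between -0.24 and 0.46 for the other 10 mRNA genes, with a median of 0.064, against -1.11 for MT-CYB. A share falls in 1 gene when others take more of the total.

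Ratios within a library do not depend on how it was scaled. Coverage of MT-CYB relative to MT-ND5 was 0.579, 0.629 and 0.537 in the libraries labelled knockout, against 1.20, 0.989 and 0.845 in WT. The ratio was lower in 3 of 3 libraries labelled knockout, at 0.582 ± 0.0458 against 1.01 ± 0.176, or 1.74-fold lower, and its log2 ratio of -0.79 was the same without replicate 1 labelled knockout. By whole coverage, the library that stood apart in level thus lay between the other libraries labelled knockout. It lay below them where MT-ND5 was taken above the value at its first base, at 0.623 against 1.25 and 1.12. By gene counts per kilobase it was also the lowest, at 0.670 against 1.09 and 0.984. MT-ND6 relative to MT-CYB was 1.98, 1.26 and 1.47 in the libraries labelled knockout, against 0.870, 0.862 and 1.06 in WT, which is higher in 3 of 3 (log2 ratio 0.75, and 0.55 without replicate 1 labelled knockout). MT-ND6 relative to MT-ND5 was 1.15, 0.791 and 0.790 in the libraries labelled knockout, against 1.04, 0.853 and 0.899 in WT, and the groups overlapped (log2 ratio -0.034, and -0.24 without replicate 1 labelled knockout). By coverage, the ratios between genes of the segment that separated the groups were thus the pair with MT-CYB in them. By gene counts per kilobase, given below, MT-ND6 relative to MT-ND5 separated them as well.

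The lower share was found in each of 3 stretches of MT-CYB but not over its first bases. In the bin of 50 bases that starts at base 14751, the share was 1.1, 0.858 and 0.475 times the WT mean in replicates 1 to 3 labelled knockout. The groups also overlapped in the first of the 12 windows of the gene, bases 14701 to 14800. That window also holds bases of MT-TE, since MT-CYB begins at base 14747. Over its first 380 bases the log2 ratio of the share was -0.96, over the next 380 bases -1.18 and over the last 381 bases -1.19, with no overlap between the groups in any of the 3 (-1.19, -1.31 and -1.33 without replicate 1 labelled knockout). Mean coverage in these stretches was 553, 517 and 412 in replicate 1 labelled knockout, 188, 199 and 153 in replicate 2 and 187, 218 and 173 in replicate 3, against 400 to 421, 485 to 497 and 385 to 392 in WT. The last stretch relative to the first was 0.744, 0.814 and 0.926 in the libraries labelled knockout, against 0.976, 0.912 and 0.966 in WT, and the groups overlapped (log2 ratio -0.20, and -0.13 without replicate 1 labelled knockout). In pieces of 100 bases, replicate 3 labelled knockout lay at 0.419 to 0.463 of the WT mean along the gene on the deposited scale. Replicate 2 was at 0.601 in the first piece and at 0.383 to 0.462 after it, and replicate 1 was at 1.78 in the first piece and at 1.0 to 1.37 after it.

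Coverage was also fitted by limma in windows of 100 bases, 166 over the chromosome and 36 with most of their bases in the segment. The segment was chosen on this contrast, so its calls are printed beside those of the chromosome as a description and are no support for a difference. On the deposited scale limma with Benjamini-Hochberg adjustment called 0 of the 36 windows lower and 0 higher, as it did over the whole chromosome (0%). At an unadjusted p under 0.05 limma also gave 0 in the segment in either direction, and 15 higher windows elsewhere. As a share, limma called 10 of the 36 windows lower, against 6.02% of the chromosome's windows, and 0 higher (0% of the chromosome). At an unadjusted p under 0.05, limma gave 17 lower and 0 higher in the segment, and 21 lower and 31 higher over the chromosome. Without WT replicate 1, 2 or 3 in turn 0 windows of the segment were called, and without replicate 1 labelled knockout 35 were.

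Counted by overlap alone, with no test, 17 of the 36 windows had a lower share in all libraries labelled knockout than in all WT libraries, against 15.7% of the chromosome's windows, and 0 had a higher one, against 29.5%. Of these, 11 lay in the 12 windows of MT-CYB, 6 in the 18 windows of MT-ND5 and 0 in the 6 windows of MT-ND6. On the deposited scale 0 of the 36 windows were lower without overlap (0% of the chromosome) and 0 were higher, against 41.6% of the chromosome. Without replicate 1 labelled knockout, limma called 20 of the 36 windows lower on the deposited scale, against 13.9% of the chromosome, and 0 higher, against 32.5%. As a share it then called 35 of the 36 lower, against 25.3%, and 0 higher, against 33.7%. These counts too come from the contrast that the segment was chosen on. Reads span neighbouring windows, which are thus not independent of each other.

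**Figure D3:**
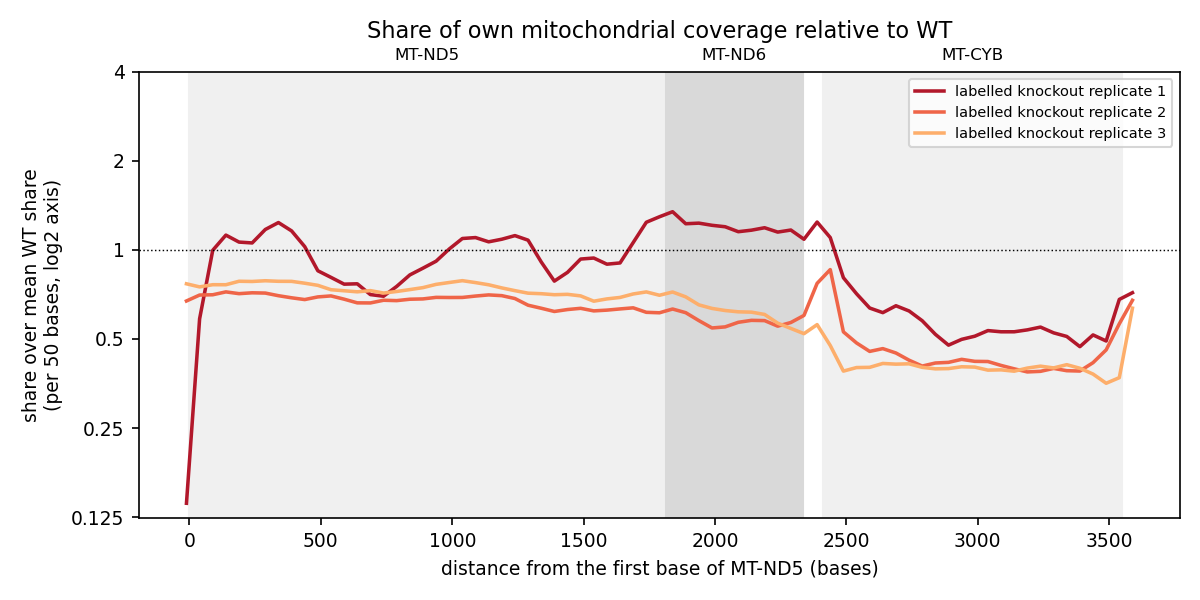
Share of mitochondrial coverage in bins of 50 bases for each library labelled knockout, divided by the mean share of the 3 WT libraries, against the distance in bases from the start of MT-ND5. Replicates 2 and 3 lie below 1 in the bins shown and fall further over MT-CYB, while replicate 1 lies on both sides of 1 over MT-ND5 and above it over MT-ND6, and all 3 are at or below 0.647 between the bins that start at bases 14901 and 15801.

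Along MT-ND5 and MT-ND6 the libraries labelled knockout lay at different shares relative to the WT mean, and replicate 1 moved most along MT-ND5. In bins of 50 bases, the share of replicate 2 relative to the WT mean stayed between 0.613 and 0.721 over MT-ND5 and was lowest, at 0.545, in MT-ND6, in the bin that starts at base 14301. Replicate 3 was at 0.787 in the bin that starts at base 13351 and at 0.543 in the one that starts at base 14601. Replicate 1 moved up and down, at 1.24 in the bin that starts at base 12651, 0.697 in the one at base 13051, 1.12 at base 13551, 0.784 at base 13701 and 1.35 at base 14151. In the bins from base 14901 on, which lie in MT-CYB, the 3 libraries came closer together, and in the bin at base 15201 they were at 0.477, 0.417 and 0.397.

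Steps in coverage were located as the places where the mean of the next 50 bases differed at least 2-fold from the mean of the 50 bases before, with no larger step within 100 bases. A rise inside the start of MT-CYB and a fall at its end were found in all 6 libraries. The rise lay after base 37, 36 and 49 of the gene in the libraries labelled knockout, against base 39, 42 and 47 in WT, so its place overlapped between the groups. It was 3.21-fold, 2.50-fold and 2.90-fold in the libraries labelled knockout, against 4.16-fold, 3.87-fold and 3.69-fold in WT, smaller in 3 of 3 libraries labelled knockout. The fall at the end of MT-CYB lay at the last base of the gene in replicate 1 labelled knockout and in each WT library, and at bases 15885 and 15882 in replicates 2 and 3 labelled knockout. It was 7.13-fold, 5.89-fold and 4.30-fold in the libraries labelled knockout, against 9.06-fold, 7.95-fold and 7.23-fold in WT. Here too the step was smaller in all libraries labelled knockout than in all WT libraries. A half-window of 100 bases gave the same order for both steps, but 25 bases did not. The fall was then 4.94-fold, 3.61-fold and 2.56-fold in the libraries labelled knockout, against 5.14-fold, 4.59-fold and 4.11-fold in WT, and overlapped. The rise was 2.75-fold in replicate 1 labelled knockout, 2.08-fold in replicate 3 and not found in replicate 2, against 2.46-fold to 2.51-fold in WT.

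The rise into MT-CYB follows a dip over MT-TE, and the level at the bottom of the dip bears on the size of the step. Mean coverage of the first 20 bases of MT-CYB was 67.9, 38.2 and 31.5 in the libraries labelled knockout, against 37.0, 43.7 and 53.9 in WT, and these ranges overlapped. As a share of the gene's own median it was 12.5%, 19.1% and 14.6% in the libraries labelled knockout, against 7.83%, 9.0% and 11.4% in WT, higher in 3 of 3 libraries labelled knockout. The fall from MT-ND6 into MT-TE was 2.19-fold, 1.62-fold and 1.89-fold in the libraries labelled knockout, against 2.28-fold, 2.02-fold and 2.02-fold in WT, and was not counted as a step of its own, being under 2-fold or within 100 bases of a larger one. Coverage first reached the level midway between 0 and the median of MT-CYB 47, 47 and 66 bases after its start in the libraries labelled knockout, against 62 bases in each WT library, and last held it 98 or 99 bases before its end in the libraries labelled knockout, against 93 to 99 bases in WT.

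**Figure D4:**
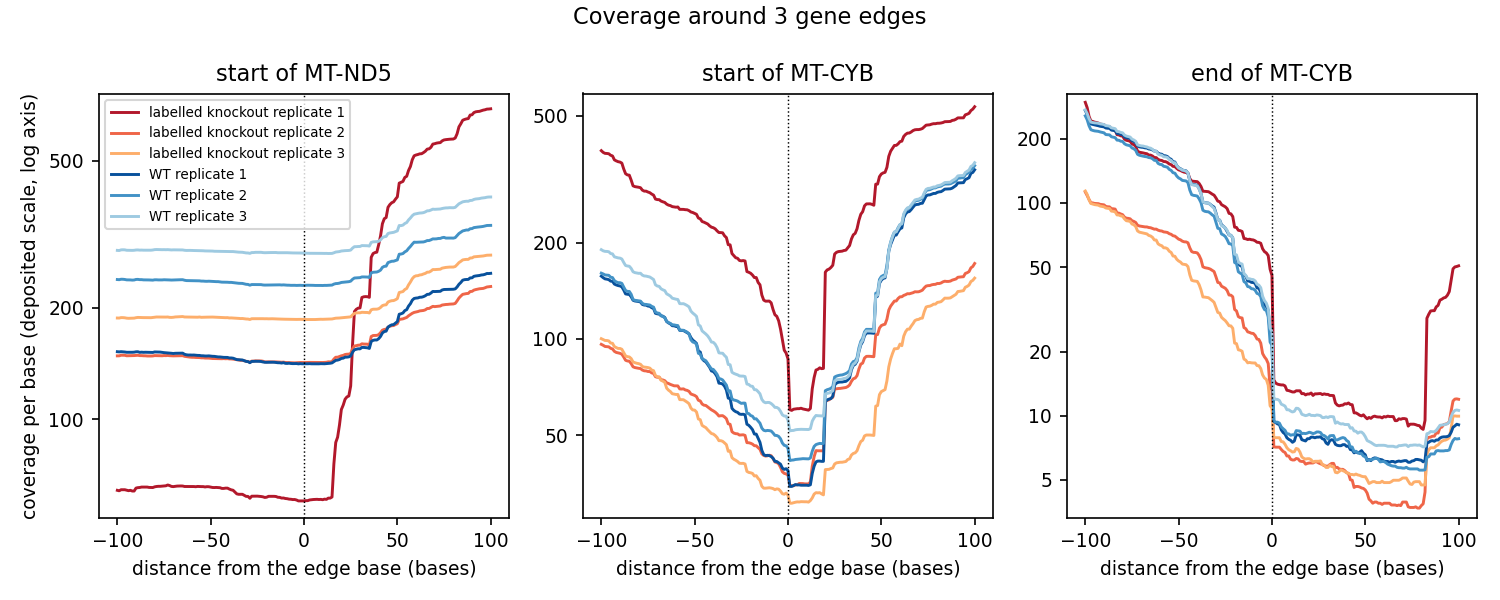
Coverage per base on a log axis within 100 bases of the start of MT-ND5, the start of MT-CYB and the end of MT-CYB, against the distance from that edge in bases; the 3 libraries labelled knockout are in reds and the 3 WT libraries in blues. Replicate 1 labelled knockout is the only library with a step of at least 2-fold near the start of MT-ND5, of 5.69-fold, while all 6 libraries rise within 50 bases after the start of MT-CYB and fall at its end.

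The start of MT-ND5 set replicate 1 labelled knockout apart from the other 5 libraries. It had a further step, a 5.69-fold rise at base 12362. The largest log2 change near that edge was 2.51 in replicate 1, 0.40 and 0.41 in replicates 2 and 3 labelled knockout, against 0.54, 0.36 and 0.34 in WT. Outside replicate 1 all of them were under the 2-fold threshold. Of 9 bases in the segment where coverage changed by at least 3% in 1 library and by no more than 1% in the others, all belonged to replicate 1 labelled knockout, and 8 of them lay between bases 12355 and 12380. At the border of MT-ND5 and MT-ND6, between bases 14148 and 14149, coverage changed by -0.172% to -0.150% in the libraries labelled knockout and by -0.377% to -0.0685% in WT, with no step in any library.

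At the single bases that flank MT-CYB the coverage also broke. From base 14747, its first, to base 14748 coverage changed by -30.7%, -6.86% and -5.71% in the libraries labelled knockout, against -10.8%, -8.48% and -7.40% in WT. From its last base to the first base of MT-TT the fall was 3.09-fold, 1.85-fold and 1.37-fold in the libraries labelled knockout, against 2.54-fold, 2.26-fold and 2.05-fold in WT. Replicate 1 labelled knockout was the highest and replicates 2 and 3 the lowest in that fall, with WT between them. Coverage of MT-TT itself was 11.7, 5.40 and 5.87 in the libraries labelled knockout, against 7.32, 7.54 and 9.29 in WT.

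Coverage before MT-ND5 was nearly flat, at a level that differed between libraries. Over the tRNA genes MT-TS2 and MT-TL2, bases 12207 to 12336, it was 63.9, 146 and 188 in the libraries labelled knockout, against 148, 236 and 285 in WT. From base to base it changed there by 0.216%, 0.10% and 0.0730% in the libraries labelled knockout, against 0.128%, 0.0790% and 0.0615% in WT. Inside MT-CYB the same measure was 0.711%, 0.636% and 0.631% in the libraries labelled knockout, against 0.652%, 0.638% and 0.646% in WT, so the stretch before MT-ND5 was the flatter of the 2 in each library. The level came to 7.49%, 51.1% and 52.3% of the mean coverage of MT-ND5 in the libraries labelled knockout, against 41.3%, 54.2% and 56.1% in WT.

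At the first base of MT-ND5 coverage was still 60.1, 142 and 186 in the libraries labelled knockout, against 141, 229.9 and 281 in WT. Taken above the value at that base, MT-ND5 had a mean coverage of 792, 143 and 173 in the libraries labelled knockout, against 218, 205 and 226 in WT. The libraries then averaged 369 ± 366 in the group labelled knockout and 216 ± 10.5 in WT, where the whole coverage gave 499 ± 308 in the group labelled knockout and 434 ± 74.1 in WT (SD, n = 3 each). MT-CYB relative to MT-ND5 so taken was 0.623, 1.25 and 1.12 in the libraries labelled knockout, against 1.97, 2.10 and 1.89 in WT. It was 1.99-fold lower in the libraries labelled knockout, at 0.997 ± 0.331 against 1.99 ± 0.103 in WT, with no overlap (log2 ratio -0.75 without replicate 1 labelled knockout). Compared with the ratio of whole coverages, the SD was larger in the libraries labelled knockout and smaller in WT. This calculation was added after the values were seen.

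**Figure D5:**
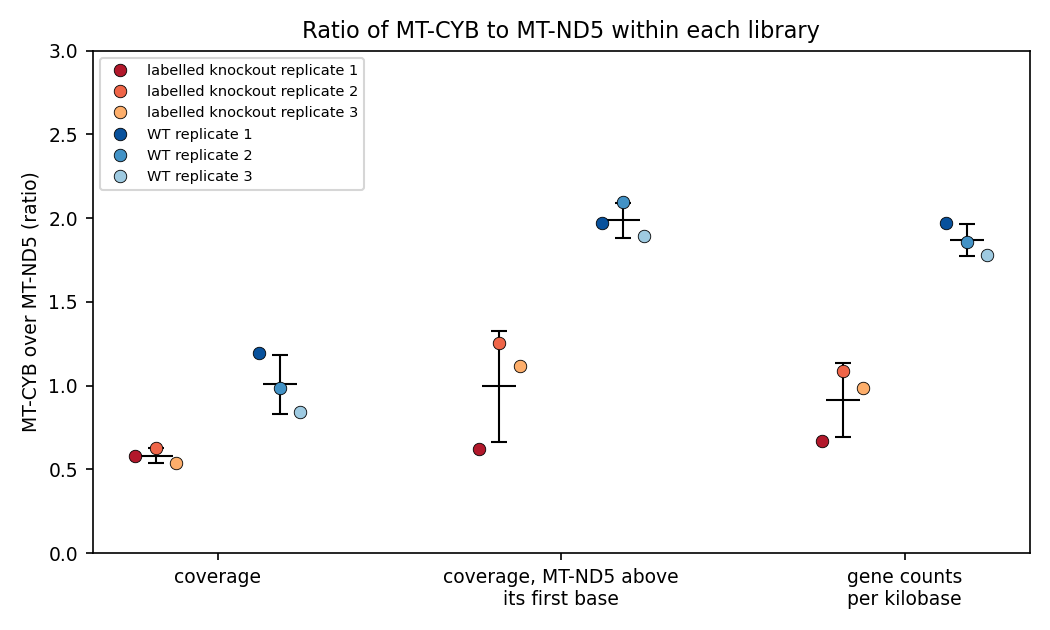
Ratio of MT-CYB to MT-ND5 in each library by whole coverage, by coverage with MT-ND5 taken above the value at its first base and by gene counts per kilobase, with labelled knockout left of WT; points are libraries and bars mark the mean and SD of 3. In each of these the 3 libraries labelled knockout lie below the 3 WT libraries, at 0.582 against 1.01, 0.997 against 1.99 and 0.915 against 1.87 on average.

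The gene counts are a separate file of the same libraries. MT-CYB (ENSG00000198727) had 76964, 25514 and 27682 counts in the libraries labelled knockout, against 58323, 63259 and 60925 in WT. The log2 fold change by edgeR was -0.34 ± 0.48 (SE), and -1.22 ± 0.045 without replicate 1 labelled knockout. MT-ND5 (ENSG00000198786) had 182357, 37156 and 44698 counts in the libraries labelled knockout, against 47013, 54093 and 54362 in WT, with a log2 fold change of 0.94 ± 0.65, and -0.36 ± 0.057 without that replicate. MT-ND6 (ENSG00000198695) had 36336, 8096 and 9857 counts in the libraries labelled knockout, against 12917, 14060 and 15040 in WT, with a log2 fold change of 0.54 ± 0.61, and -0.67 ± 0.068 without it. For the complex I genes of the segment the direction thus turned with that 1 library, and for MT-CYB it did not, although its log2 fold change was -0.032 without replicate 2 and -0.059 without replicate 3 labelled knockout.

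Per kilobase of gene, counts of MT-CYB relative to MT-ND5 were 0.670, 1.09 and 0.984 in the libraries labelled knockout, against 1.97, 1.86 and 1.78 in WT, 2.04-fold lower with no overlap (log2 ratio -1.03, and -0.85 without replicate 1 labelled knockout). Counts of MT-ND6 relative to MT-ND5 per kilobase were 0.688, 0.752 and 0.761 in the libraries labelled knockout, against 0.948, 0.897 and 0.955 in WT, 1.27-fold lower with no overlap (log2 ratio -0.35, and -0.30 without that replicate), whereas the same ratio of coverages overlapped. Whether counting used the strand is not stated, so MT-ND6 counts may hold reads of the opposite strand.

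The profile of coverage along MT-CYB and MT-ND6 was alike in the libraries, and along MT-ND5 it was less so for replicate 1 labelled knockout. Over bases, log2 coverage of MT-CYB in pairs of libraries correlated at r = 0.968 to 0.998 without replicate 1 labelled knockout and at 0.942 to 0.984 with it. For MT-ND6 the range was 0.979 to 0.999 without and 0.986 to 0.995 with that replicate, and for MT-ND5 it was 0.931 to 0.995 without and 0.816 to 0.870 with it. Over the whole segment, where levels of the genes differ too, it was 0.707 to 0.987 without and 0.691 to 0.883 with that replicate. These are descriptions, since neighbouring bases share reads. MT-ND5 is thus the gene in which replicate 1 labelled knockout was least like the rest.

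Ranked by absolute change in coverage, the 20 largest single-base changes of each library fell on 41 bases in all. Of these, 7 were among the 20 in each of the 6 libraries. At base 15327 in MT-CYB coverage rose by 13.6%, 10.5% and 10.1% in the libraries labelled knockout, against 10.7%, 10.6% and 10.9% in WT. At base 14794, near the start of MT-CYB, it rose by 16.4%, 17.2% and 23.5% in the libraries labelled knockout, against 30.4%, 30.2% and 29.4% in WT, smaller in 3 of 3 libraries labelled knockout. At base 14767 it rose by 100.2%, 42.8% and 19.98% in the libraries labelled knockout, against 53.7%, 46.3% and 17.4% in WT, which overlapped. Of the 20 bases, 4, 7 and 8 lay in MT-CYB in the libraries labelled knockout, against 16, 14 and 14 in WT. The ranking favours bases with more coverage, and MT-CYB had more coverage relative to MT-ND5 in WT. These counts are thus no separate result. Changes at bases 150 apart were opposed in each library, with r = -0.452, -0.409 and -0.415 in the libraries labelled knockout, against -0.395, -0.385 and -0.394 in WT, while at other distances between 20 and 300 bases r was not below -0.113.

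Nuclear genes that act on mitochondrial RNA were read from the same count tables. Of 36 genes for mitochondrial transcription and RNA processing, edgeR with Benjamini-Hochberg adjustment over all genes called 3 higher, against 8.64% of the 17452 genes tested, and 2 lower, against 6.5%, and 31 did not pass. Their median log2 fold change was 0.19, against 0.0055 over all genes. Without replicate 1 labelled knockout, 13 were called higher, against 22.3% of 18133 genes, and 6 lower, against 21.7%. Before adjustment 10 were higher by edgeR at p under 0.05, against 18.2% of all genes, and 4 lower, against 15%, and DESeq2 called 6 higher, against 13.4%, and 3 lower, against 10.7%.

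TFB2M, which helps the mitochondrial RNA polymerase to start transcription, had 17.4, 15.96 and 17.3 CPM in the libraries labelled knockout, against 8.52, 8.67 and 6.92 CPM in WT, and rose by 1.07 ± 0.17 on the log2 scale (edgeR adjusted p = 0.00903). MTERF1, which binds within a mitochondrial tRNA gene downstream of the rRNA genes, rose by 0.93 ± 0.18 (edgeR adjusted p = 0.0177). PDE12, which removes poly(A) tails from mitochondrial RNA, rose by 0.64 ± 0.16 (edgeR adjusted p = 0.0404). Those genes were higher in 3 of 3 libraries labelled knockout. FASTK, of which a mitochondrial form is needed for MT-ND6 mRNA, had 21.4, 65.6 and 60.1 CPM in the libraries labelled knockout, against 150, 135 and 147 CPM in WT, and changed by -1.55 ± 0.38 (edgeR adjusted p = 0.0365). SSBP1, the mitochondrial single-stranded DNA-binding protein, changed by -0.65 ± 0.17 (edgeR adjusted p = 0.0395). Both were lower in 3 of 3 libraries labelled knockout. Leaving out any 1 WT library took each of these 5 genes past 0.05, with adjusted p between 0.0531 for TFB2M and 0.167 for PDE12, and without replicate 3 labelled knockout the adjusted p of TFB2M was 0.0437 and those of the other 4 lay between 0.0548 and 0.0937. Without replicate 2 labelled knockout SSBP1 also missed the threshold, at 0.0595.

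Other genes of the list, picked for their role, did not pass over all 6 libraries. TEFM, the elongation factor of the mitochondrial polymerase, stood at -0.22 ± 0.18 on the log2 scale (edgeR adjusted p = 0.425). LRPPRC, which keeps mitochondrial mRNAs stable, stood at 0.86 ± 0.28 (edgeR adjusted p = 0.0820), with 932 CPM in replicate 1 labelled knockout, 437 and 495 CPM in the other 2, against 334 to 348 CPM in WT. It passed at 0.46 without replicate 1 labelled knockout (edgeR adjusted p = 1.45e-06) and at 1.06 without replicate 2 (edgeR adjusted p = 0.0435). FASTKD5, which is needed to cut out mitochondrial mRNAs that no tRNA gene borders, stood at 0.16 ± 0.14 (edgeR adjusted p = 0.459). PTCD2, known from mice to act on the precursor of cytochrome b mRNA, stood at 0.39 ± 0.24 (edgeR adjusted p = 0.300). Of 18 nuclear genes for subunits and assembly factors of complex III, the complex that cytochrome b belongs to, edgeR called 0 higher and 0 lower. Over all genes tested the shares were 8.64% and 6.5%. The median log2 fold change of the 18 was -0.27, against 0.0055 over all genes. Before adjustment 1 was higher and 4 were lower by edgeR at p under 0.05, against the same 18.2% and 15% of all genes, DESeq2 called 1 higher and 0 lower, against 13.4% and 10.7%, and edgeR without replicate 1 labelled knockout called 1 higher and 5 lower, against 22.3% and 21.7%.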

How the data were processed

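Per the submitters' processing notes, the tools were HISAT2 2.2.1, bedtools 2.30.0, SAMtools 1.3.1, HTSeq 0.12.4, FastQC 0.11.9 and DESeq2. The sources used here do not give their roles or options, whether counting used the strand or how alignments that skip bases were counted. The deposited gene tables hold raw counts per gene, of 14982340 to 16278091 per library; reads in no feature (8.75% to 15.9%) and ambiguous reads (9.74% to 12.5%) were left out. The deposited coverage signal was already scaled by depth: values below 20 were whole multiples of 1 step per library (within 0.1 step, 100%). Coverage was used as deposited and as a share of its library's sum.

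The segment, gene lists and tests were chosen with earlier results of these data known. Genes named are those of the segment, C17orf80, list members called by edgeR and 4 listed for their role. Windows were fitted with limma 3.58.1 (trend, log2 (coverage + 1)) and counts with edgeR 4.0.16 (TMM, filterByExpr, quasi-likelihood test) in R 4.3.3, Benjamini-Hochberg at 0.05. Errors after ± are SD over 3 libraries, or SE for log2 fold changes. Fits and step finding were tested on simulated data. Alternatives were DESeq2 1.42.0, other windows, pseudocounts, scalings and step settings, leaving out each library and a replicate block.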

Additional observations from a re-analysis of the deposited data

How the results depend on the processing

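With other window sizes, limma called 19 of 69 windows of 50 bases and 5 of 17 windows of 200 bases lower in share. With 100 bases it was 10 of 36, against 6.02% of the chromosome, whose share was not counted for the other sizes. All of these are on the contrast that the segment was chosen on and so no support for it. Leaving out 1 library gave 0 to 35 of the 36 windows of 100 bases, and 0 to 20 on the deposited scale. The 35 and the 20 came without replicate 1 labelled knockout, against 25.3% and 13.9% of the chromosome's windows. Over the chromosome, windows were not counted with any other library left out. Over genes, replicate numbers did not pair the libraries (correlations of same-numbered deviations of -0.058, -0.029 and 0.0022). Over windows on the deposited scale these correlations were -0.059, 0.43 and -0.34, of mixed sign. With a replicate block 7 of the 36 windows were lower in share and 0 on the deposited scale, and those over the chromosome were not counted. With that block edgeR called 610 genes higher and 359 lower. DESeq2 called 2340 higher and 1866 lower, and edgeR with 1 library left out called 401 to 4048 higher and 243 to 3927 lower, against 1507 and 1134 over all 6.

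With 1 library left out, the log2 ratio of deposited coverage lay between -0.43 and 0.48 for MT-ND5, -0.65 and 0.66 for MT-ND6 and -1.20 and -0.32 for MT-CYB. For shares it lay between -0.50 and -0.22, between -0.73 and -0.12, and between -1.28 and -1.01 for the same genes. MT-CYB over MT-ND5 lay between -0.91 and -0.66, and was -1.0 with MT-ND5 above the value at its first base, an alternative chosen after seeing the data. MT-ND6 over MT-ND5 lay between -0.24 and 0.057, MT-ND6 over MT-CYB between 0.55 and 0.89, the ratio of the end of MT-ND5 to its start between -0.14 and -0.055 and that of MT-CYB between -0.29 and -0.13.

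By segmentation, 7, 4 and 6 steps were found in the libraries labelled knockout, against 6, 5 and 5 in WT, and in replicate 2 labelled knockout a half-window of 25 bases found 1. The sizes of the steps at MT-CYB overlapped between the groups by segmentation. The rise was 4.21-fold, 3.33-fold and 2.97-fold in the libraries labelled knockout, against 4.47-fold, 4.23-fold and 3.54-fold in WT. The last fall was 8.83-fold, 4.39-fold and 3.55-fold in the libraries labelled knockout, against 6.26-fold, 7.01-fold and 6.33-fold in WT. With 1 library left out, the log2 fold change of counts lay between -0.36 and 1.34 for MT-ND5, between -0.67 and 0.92 for MT-ND6 and between -1.22 and -0.032 for MT-CYB. It turned to -0.36 for MT-ND5 and -0.67 for MT-ND6 without replicate 1 labelled knockout. MT-CYB was then at -1.22, and was nearest to 0 without replicate 2 labelled knockout. The cause of these changes was not tested.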
